A study of Mus musculus with 8 samples.

Results

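The genes examined were the 10 that encode the enzymes of serine, one-carbon, asparagine and proline synthesis: *Phgdh*, *Psat1* and *Psph* of the serine branch, *Shmt1*, *Shmt2*, *Mthfd1*, *Mthfd1l* and *Mthfd2* of the folate-dependent one-carbon pathway, *Asns* for asparagine and *Aldh18a1* for proline. They were chosen by symbol for their biochemical role, and make up 10 of the 27179 genes in the count table. All 10 passed the expression filter that left 17700 genes for testing.

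RNA was sequenced from B cell progenitors sorted from mouse bone marrow at an early and a late point of pre-B development, early large pre-B (early LPre-B) and small pre-B (sPre-B), to ask what the loss of UPF1 does to cells that already carry a rearranged heavy chain gene. UPF1 is an RNA helicase needed for nonsense-mediated mRNA decay. Ctrl cells were *Upf1* Flox/Flox with wild-type *Mb1* (Mb1 +/+), and cKO cells were *Upf1* Flox/Flox with Mb1 Cre/+. Every group, the controls included, carried the same rearranged knock-in allele, *Igh* B1-8hi/+, and each of the 4 groups had 2 libraries. Mb1-Cre is expressed from the *Cd79a* locus, so recombination is limited to the B lineage and cKO cells have 1 intact *Cd79a* allele fewer than Ctrl cells. Libraries are named by group and replicate. Their labels do not name the animals: the Ctrl replicates differed in sex by their Y-linked counts and so came from different animals. For the cKO replicates no label says so, although the study's methods speak of its data points in general as independent replicates, and the *P* values measure the spread between these libraries.

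Serine is made from a glycolytic intermediate by PHGDH, PSAT1 and PSPH in turn. The serine hydroxymethyltransferases SHMT1 and SHMT2 then pass a carbon unit from serine to folate and leave glycine, and the MTHFD enzymes carry that unit between its oxidation states for the synthesis of purines and thymidylate, which dividing lymphocyte progenitors need. ASNS makes asparagine from aspartate with glutamine as the nitrogen donor, and ALDH18A1 converts glutamate to the precursor of proline and ornithine. Several of these genes are known targets of the transcription factor ATF4 and others of MYC.

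The shallowest library held 68516857 counts and the deepest 160426338. Levels are given in CPM, read counts scaled for library size with TMM factors, and a count of 3, the smallest taken as measurable, came to 0.0217 to 0.0426 CPM. *Upf1* itself was measured at 237 and 213 CPM in Ctrl and 245 and 258 CPM in cKO early LPre-B cells, and at 186 and 198 CPM in Ctrl and 282 and 293 CPM in cKO sPre-B cells. This count covers all exons and Cre removes only a few of them, so it does not check the deletion. *Cd79a*, the locus that carries Cre, was lower in each cKO library, with 160 to 188 CPM against 543 to 640 CPM in early LPre-B and 325 to 405 CPM against 1480 to 1600 CPM in sPre-B cells. The B lineage list was present in every library, with *Pax5* at 269 CPM or more in each. Of the 6 sPre-B markers, *Il2ra* reached 476 to 532 CPM in the 4 sPre-B libraries against 18.6 to 53.6 CPM in the early LPre-B libraries, and *Cd2* 135 to 178 CPM against 4.95 to 6.18 CPM, whereas *Ccnd3* was lower in sPre-B libraries, at 363 to 464 CPM against 1070 to 1550.0 CPM. The sort took sPre-B cells with CD25, the product of *Il2ra*, and CD2, and early LPre-B cells without CD2. *Il2ra* and *Cd2* are thus no check separate from the sort. Among early LPre-B markers, *Dntt* was at 240 and 272 CPM in Ctrl early LPre-B libraries but at 24.8 and 26.8 CPM in those of cKO. By their Y-linked counts (19733 and 28205) both Ctrl replicate 2 libraries came from male mice, whereas the other 6 libraries had at most 34 such counts.

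The promoters of *Asns* and *Aldh18a1* are shown because these are the synthesis genes outside serine and folate metabolism, both were higher without UPF1 at either stage, and each carries a match to a motif of a regulator named above. All 10 genes were matched to RefSeq start sites of GRCm38.p6, which has the coordinates of mm10, with 11 windows of 300 bases running from 250 bases before the start to 50 after it. The 250 bases before the start are printed 5′ to 3′ on the gene's strand, which is the minus strand for both, and capitals mark the match. They lie at chr6:7693210-7693459 for *Asns* and at chr19:40588464-40588713 for *Aldh18a1*.
Asns: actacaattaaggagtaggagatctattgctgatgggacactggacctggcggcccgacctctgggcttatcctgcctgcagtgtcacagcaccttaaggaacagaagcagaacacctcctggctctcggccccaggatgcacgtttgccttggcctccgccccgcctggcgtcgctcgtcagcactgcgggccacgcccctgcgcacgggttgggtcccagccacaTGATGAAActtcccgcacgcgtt
Aldh18a1: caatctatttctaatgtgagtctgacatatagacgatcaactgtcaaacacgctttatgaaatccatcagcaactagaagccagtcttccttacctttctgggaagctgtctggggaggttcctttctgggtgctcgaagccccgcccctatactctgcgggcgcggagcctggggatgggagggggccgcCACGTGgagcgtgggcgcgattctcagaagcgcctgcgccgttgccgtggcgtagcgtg
The *Asns* match, TGATGAAA, begins 23 bases before the start and fits TGATGNAA, the core of the amino acid response element, searched on both strands. This core occurred in 1 of the 11 windows of the 10 genes and in 3.97% of 32851 mouse promoters. The *Aldh18a1* match, the E-box CACGTG, begins 59 bases before the start and was likewise found in 1 of the 11 windows, against 7.15% of all promoters. A match of letters is a description and does not show binding.

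*Asns* differed most between the genotypes. It is located on the minus strand at chr6:7675165-7693209. In early LPre-B cells it had 1.57 and 1.40 CPM in Ctrl replicates 1 and 2 and 31.7 and 36.9 CPM in cKO replicates 1 and 2. In sPre-B cells it had 0.780 and 0.624 CPM in Ctrl and 22.1 and 24.0 CPM in cKO. Both cKO groups lay far above both Ctrl groups with no overlap, and the 4 Ctrl libraries still held 217, 109, 66 and 44 counts of *Asns*. *Asns* rose 23.0-fold in cKO early LPre-B cells (Log2FC 4.53, SE 0.17, edgeR quasi-likelihood test, Benjamini-Hochberg adjusted *P* = 3.42e-06) and 32.6-fold in cKO sPre-B cells (Log2FC 5.03, SE 0.18, adjusted *P* = 7.08e-06). Its Log2FC was the 26th highest of 17700 genes at the first stage and the 71st highest at the second. Its share of the summed CPM of the 10 genes was 0.171% to 0.378% in the 4 Ctrl libraries and 2.38% to 5.77% in the 4 cKO libraries.

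**Figure D1:**
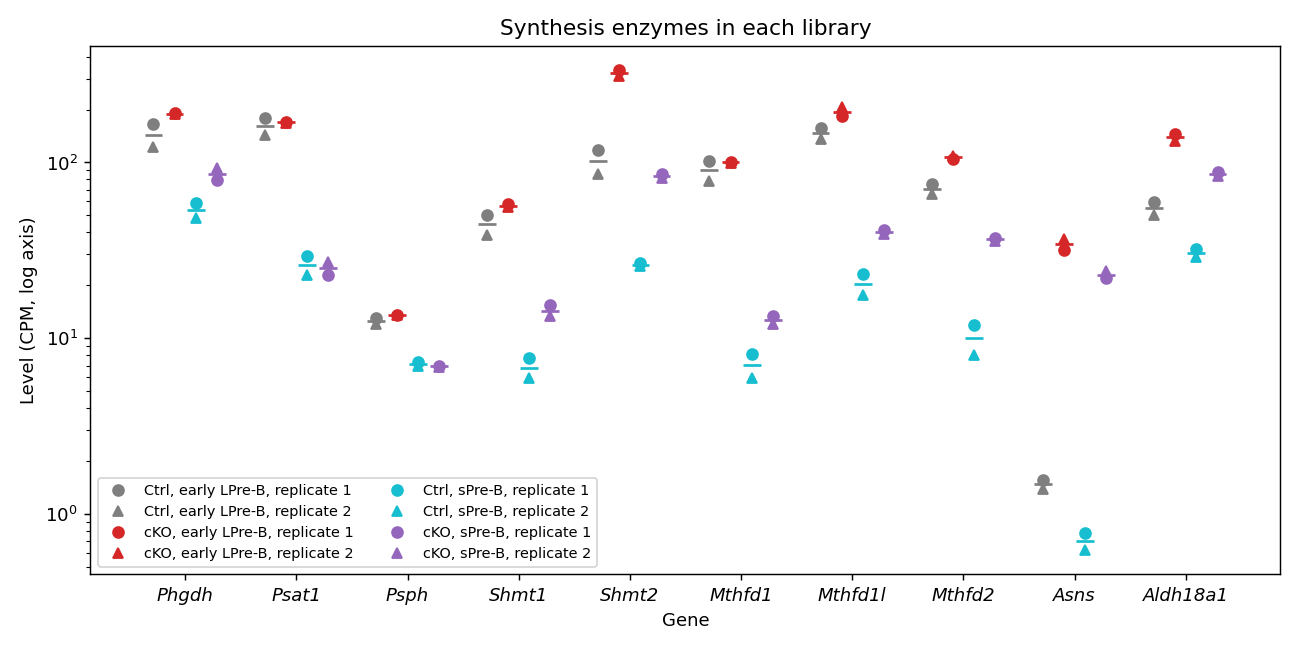
Level of each synthesis gene in each of the 8 libraries, in CPM on a log axis, with replicate 1 as circles, replicate 2 as triangles and the mean of a group as a bar. The cKO libraries of *Asns*, at 22.1 to 36.9 CPM, stand far above the Ctrl libraries, at 0.624 to 1.57 CPM, whereas those of *Psat1* overlap between genotypes at both stages.

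*Aldh18a1*, which makes the precursor of proline and lies at chr19:40550257-40588463 on the minus strand, was at 59.2 and 50.5 CPM in Ctrl and at 145 and 133 CPM in cKO early LPre-B libraries. In sPre-B libraries it was at 32.3 and 29.1 CPM in Ctrl and at 88.4 and 83.3 CPM in cKO. The genotypes did not overlap at either stage, and the cKO sPre-B libraries were also above the Ctrl libraries of the earlier stage. *Aldh18a1* rose 2.53-fold in cKO early LPre-B cells (Log2FC 1.34, SE 0.11, adjusted *P* = 8.34e-05) and 2.79-fold in cKO sPre-B cells (Log2FC 1.48, SE 0.11, adjusted *P* = 5e-05).

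In the serine branch a change was called for the first enzyme, at the later stage. *Phgdh*, which commits the glycolytic intermediate to serine and lies at chr3:98313171-98339969 on the minus strand, had 164 and 122 CPM in Ctrl and 190.4 and 189 CPM in cKO early LPre-B libraries. In sPre-B it had 59.0 and 48.6 CPM in Ctrl and 79.75 and 92.5 CPM in cKO. The cKO libraries were above the Ctrl libraries at both stages, but the difference passed the test in sPre-B cells, where *Phgdh* rose 1.60-fold (Log2FC 0.68, SE 0.15, adjusted *P* = 0.00992). In early LPre-B cells its Log2FC was 0.41 (SE 0.15, adjusted *P* = 0.0767), and the effects at the 2 stages differed by 0.27 (95% interval -0.22 to 0.77, adjusted *P* = 0.526). With a term for sex in the model the early LPre-B Log2FC was 0.24 (edgeR adjusted *P* = 0.116), and without Ctrl early LPre-B replicate 2 it was 0.26. The sPre-B call was lost without Ctrl replicate 2 (adjusted *P* = 0.0754) or cKO replicate 2 (adjusted *P* = 0.059), and an early LPre-B call was gained without Ctrl early LPre-B replicate 1 (Log2FC 0.67, adjusted *P* = 0.0219) or either Ctrl sPre-B library, without the expression filter, with only the 4 libraries compared and with DESeq2 (adjusted *P* of 0.0318 to 0.0477).

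*Psat1*, the aminotransferase of the second step, lies at chr19:15905123-15925059 on the minus strand. It was at 179 and 144 CPM in Ctrl and at 171 and 167 CPM in cKO early LPre-B cells. It was at 29.3 and 22.95 CPM in Ctrl and 22.9 and 27.1 CPM in cKO sPre-B cells. The genotypes overlapped at both stages, with Log2FC of 0.07 (95% interval -0.27 to 0.40, adjusted *P* = 0.768) and -0.06 (-0.40 to 0.28, adjusted *P* = 0.78). *Psph*, the phosphatase that releases serine, lies at chr5:129765558-129787443 on the minus strand and was the least abundant enzyme of the branch. Its levels were 13.1 and 12.1 CPM in Ctrl and 13.65 and 13.6 CPM in cKO early LPre-B cells, and 7.33 and 6.95 CPM in Ctrl and 6.97 and 6.88 CPM in cKO sPre-B cells. Its Log2FC was 0.11 (95% interval -0.16 to 0.38, adjusted *P* = 0.517) and -0.04 (-0.32 to 0.23, adjusted *P* = 0.813), and changes of *Psat1* or *Psph* within these intervals cannot be told from none.

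Of the serine hydroxymethyltransferases, the mitochondrial one rose at both stages. *Shmt2*, its gene, lies at chr10:127517123-127522444 on the minus strand. It had 118 and 85.8 CPM in Ctrl and 336 and 312 CPM in cKO early LPre-B cells, and 26.7 and 25.9 CPM in Ctrl and 86.1 and 82.0 CPM in cKO sPre-B cells. Each cKO library exceeded each Ctrl library of its stage by more than the whole spread among replicates. *Shmt2* rose 3.18-fold at the early stage (Log2FC 1.67, SE 0.14, adjusted *P* = 1.06e-04) and 3.20-fold at the later one (Log2FC 1.68, SE 0.14, adjusted *P* = 9.16e-05).

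*Shmt1*, the gene of the cytosolic enzyme at chr11:60788897-60811265 on the minus strand, had 50.2 and 38.7 CPM in Ctrl and 58.0 and 55.6 CPM in cKO early LPre-B cells. In sPre-B cells it had 7.70 and 5.93 CPM in Ctrl and 15.4 and 13.4 CPM in cKO. The change passed the test in sPre-B cells, where *Shmt1* rose 2.11-fold (Log2FC 1.08, SE 0.17, adjusted *P* = 0.00167), and not in early LPre-B cells (Log2FC 0.35, SE 0.16, adjusted *P* = 0.13), where the call was gained with a block for the replicate number (Log2FC 0.37, adjusted *P* = 0.0338) or with only the 4 libraries compared (adjusted *P* = 0.0399). Its early LPre-B Log2FC was 0.18 with a term for sex (edgeR adjusted *P* = 0.243) and 0.23 without Ctrl early LPre-B replicate 2. Per kilobase of exon, *Shmt2* exceeded *Shmt1* by 2.93 and 2.77 times in the Ctrl and by 7.23 and 7.0 times in the cKO early LPre-B libraries. The ratio was 4.33 and 5.45 in Ctrl and 6.98 and 7.66 in cKO sPre-B libraries, higher in every cKO than in every Ctrl library.

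Of the MTHFD genes, *Mthfd2* had the highest Log2FC at both stages. It encodes a mitochondrial enzyme that oxidizes the carbon unit and lies at chr6:83305704-83326011 on the minus strand. It had 75.1 and 66.5 CPM in Ctrl and 105 and 109 CPM in cKO early LPre-B cells, and 11.95 and 8.06 CPM in Ctrl and 37.4 and 35.7 CPM in cKO sPre-B cells. The genotypes were apart at both stages, and the ratio of cKO to Ctrl was greater in sPre-B cells. *Mthfd2* rose 1.51-fold in cKO early LPre-B cells (Log2FC 0.60, SE 0.16, adjusted *P* = 0.0204, lost at 0.0716 to 0.0895 without Ctrl replicate 2 or either cKO replicate) and 3.65-fold in cKO sPre-B cells (Log2FC 1.87, SE 0.17, adjusted *P* = 1.11e-04).

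*Mthfd1l*, the mitochondrial enzyme that releases formate, lies at chr10:3972892-4167081 on the plus strand. It had 158 and 136 CPM in Ctrl and 183 and 206 CPM in cKO early LPre-B cells, and 23.3 and 17.6 CPM in Ctrl and 41.5 and 39.2 CPM in cKO sPre-B cells. *Mthfd1*, the cytosolic enzyme that takes the formate up again, lies at chr12:76254406-76319820 on the plus strand. It had 102 and 78.3 CPM in Ctrl and 101 and 99.4 CPM in cKO early LPre-B cells, and 8.15 and 5.96 CPM in Ctrl and 13.4 and 12.1 CPM in cKO sPre-B cells. For both, cKO lay above Ctrl in the sPre-B libraries, whereas the early LPre-B libraries of *Mthfd1* overlapped. In sPre-B cells *Mthfd1l* rose 1.97-fold (Log2FC 0.98, SE 0.14, adjusted *P* = 0.00116) and *Mthfd1* 1.80-fold (Log2FC 0.85, SE 0.17, adjusted *P* = 0.00523). In early LPre-B cells the Log2FC was 0.40 for *Mthfd1l* (SE 0.14, adjusted *P* = 0.0557) and 0.15 for *Mthfd1* (SE 0.16, adjusted *P* = 0.507). With a term for sex that of *Mthfd1l* was 0.25 in early LPre-B cells (edgeR adjusted *P* = 0.105), and without cKO early LPre-B replicate 2 it was 0.32. *Mthfd1l* was called higher there, with an adjusted *P* of 0.0126 to 0.0444, with DESeq2, the likelihood-ratio test, upper-quartile factors, the replicate block, only the 4 libraries compared, no expression filter, or either Ctrl sPre-B library left out. Per kilobase, the ratio of *Mthfd2* to *Mthfd1* was 0.939 and 1.08 in Ctrl and 1.33 and 1.40 in cKO early LPre-B libraries, then 1.87 and 1.72 in Ctrl and 3.55 and 3.76 in cKO sPre-B libraries. The ratio of *Mthfd1l* to *Mthfd1* was 1.55 and 1.74 in Ctrl against 1.81 and 2.07 in cKO at the early stage, and 2.86 and 2.96 against 3.10 and 3.25 at the later stage.

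**Figure D2:**
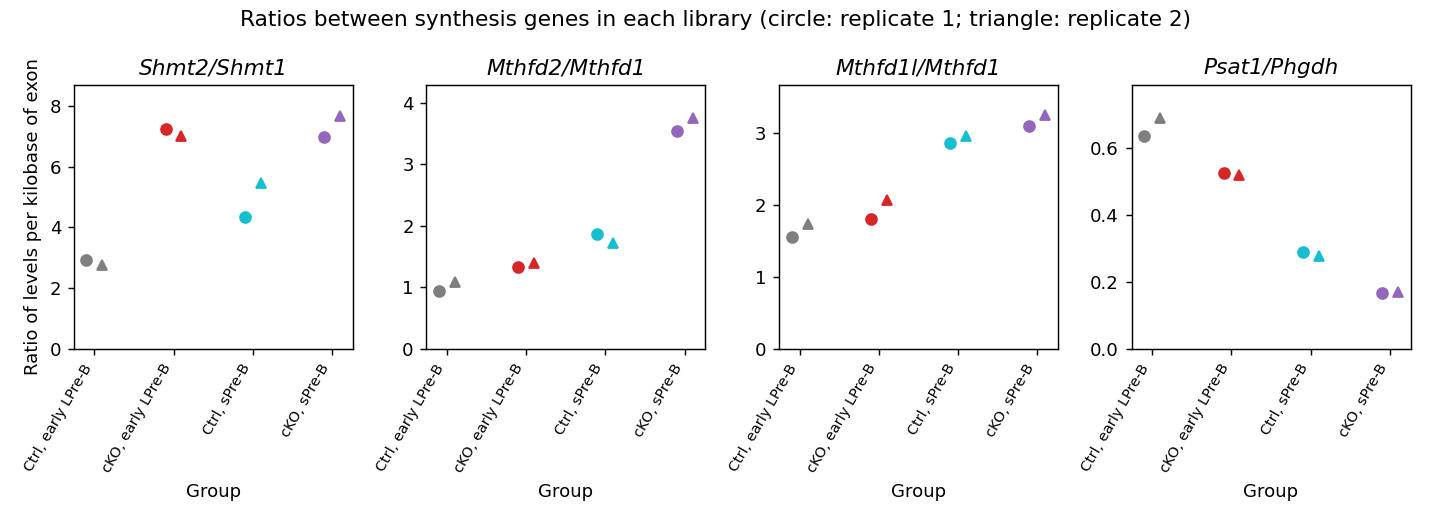
Ratio of the levels per kilobase of exon of 4 gene pairs in each library, by group, with replicate 1 as circles and replicate 2 as triangles. *Shmt2* over *Shmt1* is 6.98 or more in every cKO library and 5.45 or less in every Ctrl library, and *Psat1* over *Phgdh* is lower in cKO than in Ctrl at each stage, with 0.168 and 0.171 in cKO sPre-B cells.

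Across the 10 genes, 4 were higher and 0 lower in cKO early LPre-B cells, where 14.5% of all genes tested were called higher and 16.9% lower. At an unadjusted *P* under 0.05, 0 of the 10 were lower too, and DESeq2 called 6 higher and 0 lower. Both cKO libraries lay above both Ctrl libraries for 8 of the 10, as they did for 29.9% of all genes. In sPre-B cells 8 of the 10 were higher and 0 lower, against 19.8% and 14.9% of all genes, and 0 were lower at an unadjusted *P* under 0.05 or with DESeq2, which called 8 higher. Both cKO libraries lay above both Ctrl libraries for 8 of the 10, as they did for 36.5% of all genes. The median Log2FC of the 10 was 0.40 and 1.03 at the 2 stages, and that of all genes was -0.06 and 0.01. The summed level of the 10 was 920 and 735 CPM in Ctrl and 1334 and 1320.0 CPM in cKO early LPre-B libraries, and 207 and 172 CPM in Ctrl and 414 and 416 CPM in cKO sPre-B libraries.

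Cell markers and the animals' sex moved together with these groups. In cKO early LPre-B cells *Mki67*, a proliferation marker, was at 2910 and 3070 CPM against 4460 and 4930 CPM in Ctrl, *Kit* at 2.08 to 3.84 CPM against 15.1 to 18.7 CPM and *Rag1* at 44.0 to 74.9 CPM against 385 to 409 CPM. *Cd74* was higher in cKO there, at 213 and 337 CPM against 86.7 and 92.0 CPM, and *Il7r* overlapped, at 443 and 513 CPM against 460.0 and 625 CPM. The summed list of 7 early large pre-B markers lay between 3840 and 4100 CPM in cKO and between 5970 and 6360 CPM in Ctrl at that stage, and between 1390 and 1780 CPM against 1060 and 1350 CPM in sPre-B cells. At the early stage this sum was mostly *Mki67*. In sPre-B cells it was mostly *Mki67*, at 661 and 749 CPM in cKO and 717 and 360 CPM in Ctrl, and *Il7r*, at 663 and 943 against 558 and 635 CPM. The summed list of 9 myeloid markers was lower in cKO, at 50.3 to 55.7 against 111 to 134 CPM in early LPre-B and at 212 to 244 against 305 to 356 CPM in sPre-B cells, mostly as *Itgam*. The sort excluded cells stained for lineage markers, among them CD11b, the product of *Itgam*, and F4/80. The part of these markers in the results was not tested, and in bulk RNA fewer cells of a type and less RNA per cell cannot be told apart. Between replicates, Ctrl replicate 2, the male library, was lower than Ctrl replicate 1 for 10 of the 10 genes at both stages, with median ratios of 0.829 and 0.792, while 55.8% and 50.4% of all genes were lower, with median ratios of 0.967 and 0.997. In cKO replicate 2 was lower for 7 of 10 genes at each stage, with median ratios of 0.989 and 0.954, against 41.9% and 47.6% of all genes and median ratios of 1.03 and 1.01. With only the 6 libraries from female mice, an alternative chosen after seeing the data, 4 of the 10 were called higher in early LPre-B and 8 in sPre-B cells. That fit has 1 Ctrl library per stage, and its spread comes from the cKO groups alone.

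**Figure D3:**
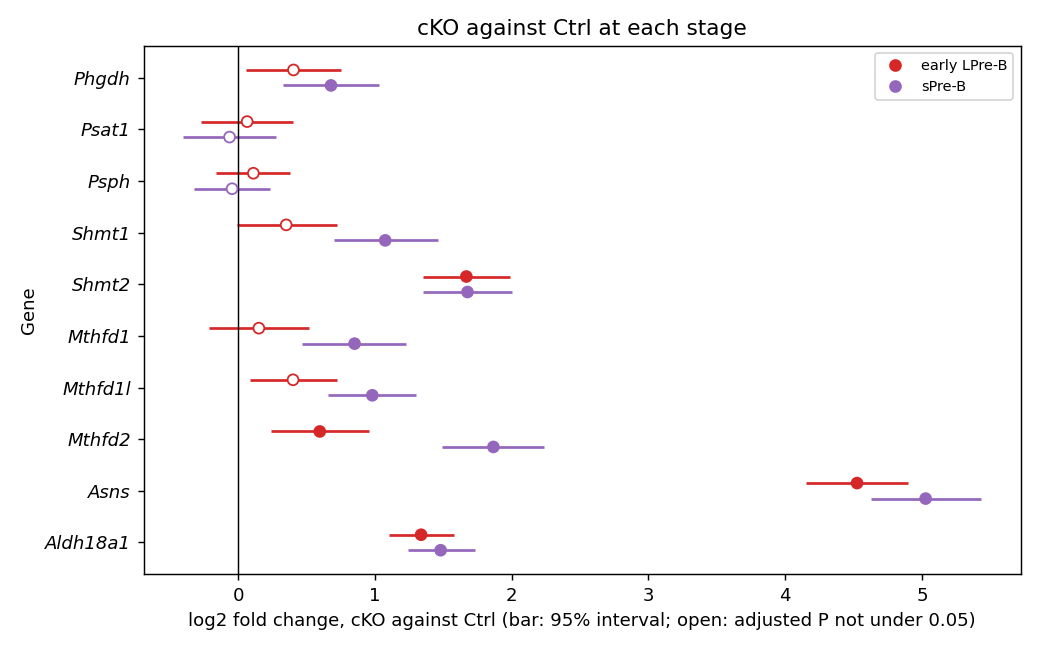
Log2FC of cKO against Ctrl for each gene in early LPre-B (red) and sPre-B cells (purple), with 95% intervals from the edgeR fit and open circles where the adjusted *P* was not under 0.05. *Asns* lies at 4.53 and 5.03, *Shmt2* and *Aldh18a1* between 1.34 and 1.68 at both stages, and *Psat1* and *Psph* close to 0.

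The stages were compared to see how these enzymes change as cells leave the dividing large pre-B pool. In Ctrl cells, 10 of the 10 genes were lower and 0 higher in sPre-B than in early LPre-B cells, where 31.1% of all genes were called lower and 29.1% higher. Both sPre-B libraries lay below both early LPre-B libraries for 10 of the 10, as they did for 40.3% of all genes. The median Log2FC of the 10 was -2.29, against 0.02 for all genes. *Mthfd1* fell 12.8-fold (Log2FC -3.67, SE 0.18, adjusted *P* = 1.48e-06), followed by *Mthfd1l* (7.18-fold), *Mthfd2* (7.06-fold), *Shmt1* (6.52-fold) and *Psat1* (6.18-fold). *Psph* (1.76-fold, Log2FC -0.82, SE 0.12, adjusted *P* = 4.48e-04) and *Aldh18a1* (1.79-fold) fell least.

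In cKO cells 10 of the 10 genes were again lower and 0 higher, with 31.1% of all genes called lower and 31.6% higher. The libraries of the stages did not overlap for 10 of the 10, and for 40.3% of all genes in this direction. The median Log2FC of the 10 was -1.75, against 0.05 for all genes. *Mthfd1* fell 7.85-fold (Log2FC -2.97, SE 0.17, adjusted *P* = 3.35e-06) and *Psat1* 6.75-fold (Log2FC -2.76, SE 0.16, adjusted *P* = 2.99e-06). *Asns* fell least, 1.49-fold (Log2FC -0.57, SE 0.14, adjusted *P* = 0.00652), and without cKO early LPre-B replicate 2 its Log2FC was -0.46 with an adjusted *P* of 0.0597. *Mki67* was at 360 to 749 CPM in the 4 sPre-B libraries against 2910 to 4930 CPM in the 4 early LPre-B libraries, and its part in the stage changes was not tested. These comparisons share the early LPre-B and sPre-B libraries with the genotype comparisons.

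**Figure D4:**
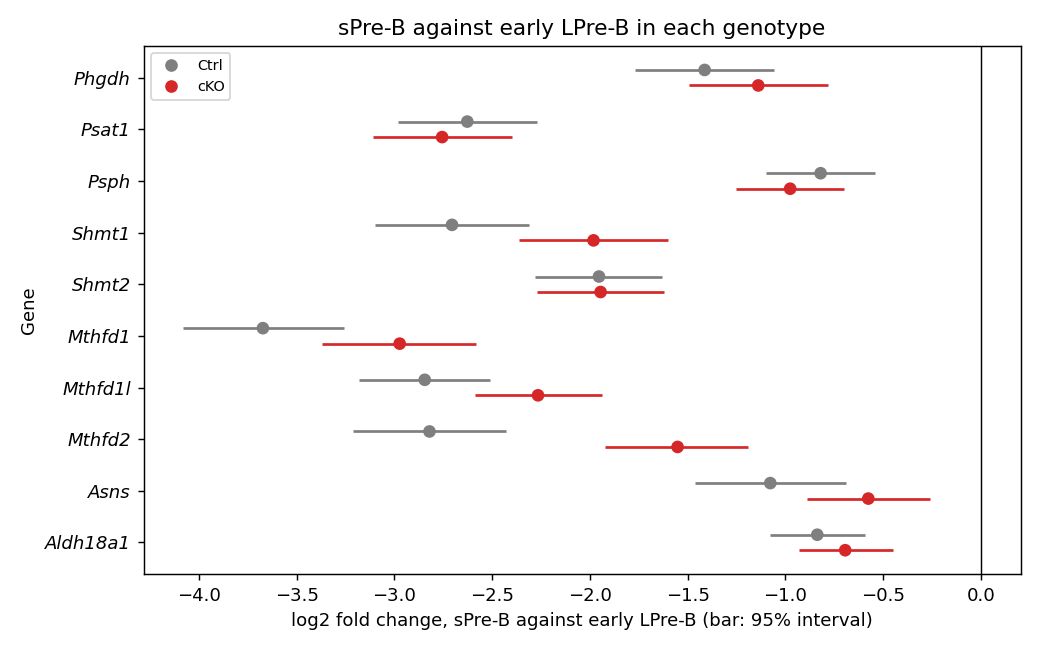
Log2FC of sPre-B against early LPre-B cells for each gene in Ctrl (grey) and cKO (red), with 95% intervals from the edgeR fit. All 20 values are below 0, from -3.67 for *Mthfd1* in Ctrl to -0.57 for *Asns* in cKO.

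Whether the genotype difference itself changed between stages was tested with the interaction of stage and genotype, in which 2.64% of all genes were called higher and 1.60% lower. Of the 10 genes 1 was called higher and 0 lower, and 0 were lower at an unadjusted *P* under 0.05 or with DESeq2. It was *Mthfd2*, whose Log2FC was greater by 1.27 in sPre-B than in early LPre-B cells (SE 0.23, adjusted *P* = 0.0233). This call was lost, with an adjusted *P* between 0.0674 and 0.0918, when any of the 4 early LPre-B libraries or cKO sPre-B replicate 1 was left out, and its difference then lay between 1.11 and 1.29. *Shmt1* (0.72, adjusted *P* = 0.12), *Mthfd1* (0.70, adjusted *P* = 0.131), *Mthfd1l* (0.58, adjusted *P* = 0.14) and *Asns* (0.50, adjusted *P* = 0.24) had unadjusted *P* values of 0.0127 to 0.0499. With a term for sex, edgeR called *Shmt1* (adjusted *P* = 0.0257), *Mthfd1* (0.0208) and *Mthfd1l* (0.0422). *Shmt1* was also called with the replicate block (0.0416), and *Shmt1* (0.0459) and *Mthfd1* (0.0393) without the expression filter. For *Shmt2* the difference was 0.01 (95% interval -0.43 to 0.45) and for *Aldh18a1* 0.14 (-0.20 to 0.48).

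The order of the genes by level per kilobase of exon changed with genotype. In Ctrl early LPre-B cells *Phgdh* was the most abundant with 57.6 ± 12.1 CPM per kilobase (SD, n = 2), followed by *Psat1* (37.9 ± 5.79), *Mthfd1l* (33.1 ± 3.48) and *Shmt2* (32.7 ± 7.24), whose libraries overlapped in turn. In cKO early LPre-B cells *Shmt2* was first with 104 ± 5.50 CPM per kilobase and *Phgdh* second with 76.3 ± 0.454, and no neighbours in the order overlapped. *Asns* was last in both Ctrl groups, at 0.542 ± 0.0446 and 0.257 ± 0.0404 CPM per kilobase. It was ninth in cKO early LPre-B cells with 12.6 ± 1.35 and sixth in cKO sPre-B cells with 8.43 ± 0.502, above *Psat1* with 5.88 ± 0.702. In sPre-B cells *Phgdh* was first in both genotypes, with 21.6 ± 2.97 in Ctrl and 34.7 ± 3.64 CPM per kilobase in cKO, and *Psph* was last in cKO with 1.60 ± 0.0144.

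Transcription factors known to act on genes of these enzymes were measured beside them. *Atf4*, the regulator of the amino acid response, had 135 and 118 CPM in Ctrl and 461 and 403 CPM in cKO early LPre-B cells, and 129 and 139 CPM in Ctrl and 355 and 380 CPM in cKO sPre-B cells. It rose 3.42-fold (Log2FC 1.77, SE 0.12, adjusted *P* = 5.22e-05) and 2.74-fold (Log2FC 1.45, SE 0.12, adjusted *P* = 7.41e-05). *Ddit3*, which is induced by ATF4, rose 5.39-fold (adjusted *P* = 2.09e-05) and 4.15-fold (adjusted *P* = 3.56e-05), and *Trib3*, which feeds back on ATF4, rose 2.85-fold (adjusted *P* = 0.0062) and 7.28-fold (adjusted *P* = 3.51e-04). The study also counts *Ddit3* among known targets of nonsense-mediated decay and among RNAs bound by phosphorylated UPF1 in activated splenic B cells. The source of its rise was not tested. *Myc* rose 1.81-fold (adjusted *P* = 0.00924) and 2.93-fold (adjusted *P* = 8.52e-04) and fell 25.6-fold from early LPre-B to sPre-B in Ctrl cells. *Cebpg*, a partner of ATF4, fell by 0.36 on the log2 scale in cKO early LPre-B cells (adjusted *P* = 0.00917) and rose by 0.24 in cKO sPre-B cells (adjusted *P* = 0.0473). Of the list of 20 regulators, 6 rose and 3 fell at the early stage, where 14.5% of all genes rose and 16.9% fell, and 9 rose and 3 fell at the later one, where the shares were 19.8% and 14.9%.

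The neighbouring steps of the pathways were mixed in direction, and their counts stand beside the same shares of all genes, 14.5% higher and 16.9% lower at the early stage and 19.8% and 14.9% at the later one. Of 10 tested genes for other serine and glycine steps, 2 rose and 2 fell in cKO early LPre-B cells and 4 rose and 0 fell in cKO sPre-B cells. *Srr*, which racemizes serine, rose at both stages (Log2FC 0.86, adjusted *P* = 7.26e-04, and Log2FC 0.92, adjusted *P* = 4.5e-04), while *Gldc* of the glycine cleavage system fell at the early stage (Log2FC -0.89, adjusted *P* = 0.0266). *Amt*, of the same system, rose at both stages (Log2FC 0.88, adjusted *P* = 0.00993, and Log2FC 1.44, adjusted *P* = 8.91e-04). Of 22 tested genes of the folate and methyl cycle, 3 rose and 2 fell at the early stage and 5 rose and 4 fell at the later one. *Aldh1l2*, a mitochondrial enzyme that oxidizes formyl-folate, rose in cKO sPre-B cells (Log2FC 2.78, adjusted *P* = 0.00167), and *Aldh1l1*, its cytosolic counterpart, fell in cKO early LPre-B cells (Log2FC -1.30, adjusted *P* = 0.0184).

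Of 13 purine synthesis genes, 2 rose and 1 fell in cKO early LPre-B cells and 4 rose and 2 fell in cKO sPre-B cells, which with so few genes is not set apart from those shares. Between the stages 13 of the 13 fell in Ctrl and 11 fell in cKO cells, where 31.1% of all genes fell in each genotype, with a median Log2FC of -1.95 and -1.84 against 0.02 and 0.05 for all genes. Of 11 proline, ornithine and glutamate genes, 4 rose and 1 fell at the early and 2 rose and 1 fell at the later stage. *Pycr1*, the reductase that completes proline, had 1.51 and 1.58 CPM in Ctrl and 6.10 and 5.73 CPM in cKO early LPre-B cells and rose at both stages (Log2FC 1.94 at each, adjusted *P* = 8.32e-04 and 0.00111), while *Prodh*, which breaks proline down, fell at the early stage (Log2FC -0.80, adjusted *P* = 0.0103). *Aldh4a1*, also of proline breakdown, rose at the early stage (Log2FC 0.74, adjusted *P* = 0.00297). Of 13 tested genes of glutamine, aspartate and asparagine metabolism, 4 rose and 1 fell at the early and 7 rose and 1 fell at the later stage. *Gpt2*, the mitochondrial alanine aminotransferase, rose at both (Log2FC 2.21, adjusted *P* = 7.95e-04, and Log2FC 0.87, adjusted *P* = 0.0377), while *Glul*, the glutamine synthetase, fell at the early stage (Log2FC -0.77, adjusted *P* = 0.00474).

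Exons of 4 of the 10 genes overlap a gene on the other strand: *Psph* with *Cct6a*, *Shmt1* with *Smcr8*, *Shmt2* with *Ndufa4l2* and *Mthfd1* with Gm47525. The study's methods call the alignment unstranded and give no strand setting for the counting, so reads of the other strand may be included. *Ndufa4l2* was at 0.194 to 0.928 CPM on average in the 4 groups, far below *Shmt2*. *Smcr8*, at 108 to 155 CPM on average, and *Cct6a*, at 64.7 to 186 CPM, were above *Shmt1* and *Psph*, and the part of their reads in those counts was not tested. *Phgdh*, *Psat1*, *Mthfd1l*, *Mthfd2*, *Asns* and *Aldh18a1* had no such overlap.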

How the data were processed

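Sorted early LPre- and sPre-B cells gave 8 libraries, 2 per group, with groups taken from the genotype and stage in the labels. Libraries were depleted of ribosomal RNA and made with a directional kit. The authors deposited unnormalized counts per gene, made with Trim Galore, HISAT2 (mm10) and featureCounts, whose versions were not given in the sources used here. Of 27179 Entrez identifiers, RefSeq named 25275, and 22889 had at least 1 count.

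A single edgeR 4.0.16 model (R 4.3.3) with 1 mean per group was fitted to all 8 libraries, with TMM factors of 0.862 to 1.09, for the 17700 genes kept by the expression filter (common biological coefficient of variation 0.174). Contrasts were tested by the two-sided quasi-likelihood F test, and *P* values were adjusted by Benjamini-Hochberg over these genes and called under 0.05. The SE of a Log2FC is its size divided by the root of *F*, and 95% intervals use the fit's degrees of freedom. Lengths are merged exons of the GENCODE annotation of GRCm38. Floors of 3 counts cover counting error only.

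The 10 genes, the 6 pathway lists and the 8 marker lists (B lineage, early large pre-B, small pre-B, T cell, myeloid, erythroid, plasma cell, stroma) were chosen with earlier results of these data known. All 10 genes, *Atf4*, *Ddit3*, *Trib3*, *Cebpg* and *Myc* are named whatever their values, and up to 4 called genes per pathway list and comparison could be named, by absolute Log2FC, given 50 or more counts in both libraries of the group with the higher level. Of the 156 list genes 1, *Hbb-bt*, was not found by name, and some genes that the rule allows are not reported here. Alternatives were DESeq2 1.42.0, edgeR's likelihood-ratio test, median-ratio and upper-quartile factors, no filter, a replicate block, a term for sex, only the 4 libraries compared, immunoglobulin genes left out, and each library left out in turn, where a lone library is assumed to vary like the others. Keeping only the 6 libraries from female mice was added after seeing the data.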

Additional observations from a re-analysis of the deposited data

Results flagged for a closer look

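The effect of genotype differed between the stages for 7 of the 62 genes considered here, by edgeR's test of the interaction, adjusted over all genes by Benjamini-Hochberg. Over all genes 2.64% were called higher and 1.60% lower, and the 62 are the 10 synthesis genes, 5 regulators and list genes picked for a large called Log2FC in some comparison, so their count is no result about the lists. *Mthfd2* was the one of the 10 synthesis genes among them, with a Log2FC (cKO against Ctrl) that was greater by 1.27 in sPre-B than in early LPre-B cells (SE 0.23, adjusted *P* = 0.0233). *Gad1*, which makes GABA from glutamate, was at 0.0723 to 0.141 CPM in the early LPre-B libraries of both genotypes and at 5.35 and 7.20 CPM in cKO sPre-B against 0.556 and 0.411 CPM in Ctrl sPre-B libraries, a difference of 3.70 (adjusted *P* = 0.0133). *Gfpt1* (0.99, adjusted *P* = 0.0419), *Atf5* (0.81, adjusted *P* = 0.0428) and *Cebpg* (0.60, adjusted *P* = 0.0274) also had the greater Log2FC in sPre-B cells. The folate carrier *Slc19a1* (-1.34, adjusted *P* = 0.0181) and *Aldh4a1* (-0.77, adjusted *P* = 0.0489) had the greater Log2FC in early LPre-B cells.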

How the results depend on the processing

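Of 178 numbers of called genes under the alternatives, 167 stayed within 1.5 times the reported number. By this rule 6 in place of 4 counts as kept. The 167 also include every number that was 0 in the reported fit, all of which stayed at 0. Apart from 1 number of the early LPre-B comparison, those that moved belonged to the interaction. In early LPre-B cells 7 in place of 4 of the 10 genes were higher with only the 4 libraries compared, and leaving out 1 library gave 3 to 6. In sPre-B cells leaving out 1 library gave 7 to 8, and from early LPre-B to sPre-B in cKO 9 to 10. In the interaction 3 genes were called without the filter, 2 with the replicate block, 4 with the term for sex, 0 with only the libraries from female mice and 0 to 2 with 1 library left out, in place of 1. For single genes, 836 of 890 values kept direction and call. Of the called genes, *Mthfd2* in early LPre-B lost its call without Ctrl replicate 2 or either cKO replicate (adjusted *P* 0.0716 to 0.0895, edgeR), and *Phgdh* in sPre-B without Ctrl replicate 2 (0.0754) or cKO replicate 2 (0.059).

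The direction turned for values near 0 that were not called. In early LPre-B, *Psat1* was at -0.0908 with the term for sex, -0.0293 with only the libraries from female mice and -0.03 to 0.27 with 1 library left out, and *Mthfd1* at -0.0414 with the term for sex. In sPre-B, *Psat1* was at -0.26 to 0.0874 with 1 library left out. In the interaction, *Phgdh* was at -0.0316 to 0.39 and *Aldh18a1* at -0.0516 to 0.20 with 1 library left out. There *Shmt2* was at -0.0358 with DESeq2, -0.0338 with median-ratio factors, -0.0246 with upper-quartile factors, -0.0021 with the replicate block, -0.0088 with the term for sex and -0.31 to 0.13 with 1 library left out. The causes were not tested. Upper-quartile factors moved the median of all genes to 0.12 in both stage comparisons.

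The labels tie same-numbered libraries to no shared animal, batch or day. The correlations of their deviations over 17700 genes were 0.051 to 0.395, above 0.1 in 4 of 6 pairs and highest between the Ctrl libraries of the 2 stages, whose replicate 2 were both male. The fit reported has no block, and whether the numbers mark a shared source was not settled by these values. With the replicate block, 6 of the 10 genes were higher in early LPre-B, *Shmt1* (edgeR adjusted *P* = 0.0338) and *Mthfd1l* (0.0399) in addition, and 8 in sPre-B cells. Each of the 10 genes had at least 44 counts in every library; how far depth and how far the 2 libraries per group limit the small changes was not tested.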

Other observations

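Several marker lists of other cell types were low throughout. Of the 7 T cell markers, *Lck* made up most of the summed level of 6.11 to 59.3 CPM, while *Cd3g* and *Bcl11b* were at 0.112 CPM or less in every library. The 6 erythroid markers found summed to 15.3 to 31.4 CPM in Ctrl and 3.75 to 16.3 CPM in cKO libraries. The 4 plasma cell markers, mostly *Sdc1*, summed to 69.9 to 109 CPM in Ctrl and 36.0 to 59.2 CPM in cKO libraries. The 4 stromal markers summed to 0.847 to 9.55 CPM, and *Cxcl12* was higher in replicate 1 than in replicate 2 of every group (4.93 against 0.385, 4.99 against 0.223, 7.46 against 0.837 and 4.16 against 1.05 CPM). The 7 B lineage markers summed to 2860 to 2880 CPM in Ctrl and 1920 to 1980 CPM in cKO early LPre-B libraries, and to 6050 to 6770 CPM against 4420 to 4840 CPM in sPre-B libraries. The 6 small pre-B markers summed to 1790 to 2180 CPM against 1440 to 1820 CPM, and to 4470 to 5060 CPM against 3470 to 3800 CPM.

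The other pathway lists held genes that rose and genes that fell between the stages, where in Ctrl cells 29.1% of all genes rose and 31.1% fell. From early LPre-B to sPre-B in Ctrl cells 1 of 10 tested serine and glycine genes rose and 6 fell, and 5 of 22 folate and methyl cycle genes rose and 13 fell. *Tyms*, the thymidylate synthase, had 151 and 110 CPM at the early and 11.1 and 4.96 CPM at the later stage (Log2FC -4.02, edgeR adjusted *P* = 2e-05). Of the 11 proline, ornithine and glutamate genes 3 rose and 5 fell, with *Prodh*, the first enzyme of proline breakdown, rising (Log2FC 1.85, edgeR adjusted *P* = 3.56e-05). Of 13 tested glutamine, aspartate and asparagine genes 3 rose and 3 fell.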
